A study of Drosophila melanogaster with 10 samples.

Results

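The comparison set the second run of 1 experiment, as the tables number it, against its first, to describe which genes vary between runs of Drosophila melanogaster S2 cells in every group. Its members were the 6 libraries of set 1, of 10 in the series: 3 columns of a first-run table and the same 3 columns of a second-run table, paired by column name. All 3 groups were S2 cells given double-stranded RNA and plasmids for the proneural protein Achaete (Ac) and for Daughterless (Da), with which it pairs. The groups were control knockdown (Luc KD) with wild-type Ac (Ac WT), Luc KD with the Ac variant R29G, and knockdown of the histone variant H2A.Z (H2A.Z KD) with Ac WT. Each group had 1 library in each run. S2 is 1 established line from late embryonic stage, so every library shares its origin. The labels do not state what share of cells took up the plasmids. The tables name the runs only as first and second. Whether a run stands for a culture, a transfection, a library preparation or a sequencing run is not stated either, so these cannot be told apart. Libraries were prepared with an MGIEasy or a TruSeq mRNA kit, and the labels do not say which kit served which library.

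S2 cells resemble plasmatocytes, the phagocytic blood cells of the fly, and secrete matrix proteins such as collagen IV and laminins. They do not normally form neurons. Ac and Da are basic helix-loop-helix proteins that pair on DNA and switch on genes of sensory organ precursors, such as scabrous (sca) and phyllopod (phyl). Between runs of a cell line, genes for stress proteins, nutrient use and secreted products are known to vary with density, medium and handling. A difference between runs in a bulk sample can come from fewer cells of a kind or from less RNA per cell, and these cannot be told apart here.

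The 6 libraries held 24500413 to 33712374 recovered reads. Values are scaled reads, that is, reads divided by 1 factor per library, set jointly over both runs. Differences are second minus first run of log2(scaled reads + 1), which understates the change of low genes. They were tested with limma over 11947 genes with the group as a block, and a gene was called at an adjusted p under 0.05. With 1 library per group and run, each run difference is taken over 3 pairs of libraries, whose spread may be technical. limma draws each gene's spread toward that of genes of like level, with 14.15 prior against 2 residual degrees of freedom. The p-values therefore mostly measure this pooled spread, and less the spread of a gene's own 3 pairs.

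Of 11947 genes tested, 1412 (11.8%) were called higher and 1834 (15.4%) lower in the second run, with a median difference of 0.01 over all genes. The counts given below for gene lists are to be read beside these shares. Large differences were mostly upward, with 354 genes called higher by 2-fold or more and 75 called lower by as much. The difference had the same sign in all 3 pairs for 1394 of the genes called higher and 1821 of those called lower. In 1311 genes (11%) all 3 second-run values lay above all 3 first-run values, and in 1381 genes (11.6%) all 3 lay below. The calls depended on limma's intensity trend and low-value filter: without the trend, or without the filter, 0 genes passed in either direction, while 3261 and 3604 were at an unadjusted p under 0.05 (4563 in the fit used). On the recovered reads, 1682 genes were higher and 1728 lower with edgeR, and 830 and 1353 with DESeq2. Without the Luc KD Ac WT pair, limma called 855 higher and 1195 lower. With each table on its own deposited scale the split became 786 higher and 4329 lower, around a median of -0.15 over all genes.

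**Figure D1:**
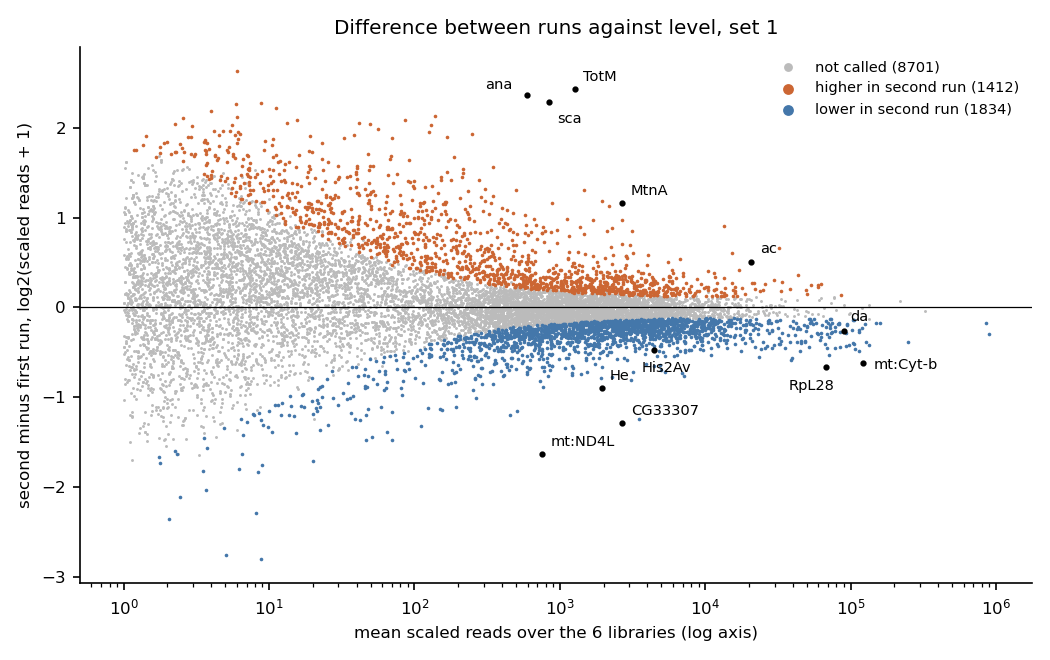
Each point is 1 of 11947 genes, placed by its mean scaled reads over the 6 libraries (log axis) and its log2 difference between runs (second minus first). The 1412 genes called higher reach past 2 at low and middle levels, and the 1834 called lower include many genes with the highest counts.

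Among genes with a mean of at least 20, the largest rises joined a stress-induced secreted factor, a glial glycoprotein and a proneural target. TotM, a Turandot gene whose product is released into the hemolymph under stress (2L 5329857 to 5330464, BDGP6, plus strand), had 205, 543 and 486 scaled reads in the first run and 1376, 2214 and 2779 in the second, in the order Luc KD Ac WT, Luc KD Ac R29G and H2A.Z KD, which is kept below. The second run was higher in each pair, with no overlap, and the difference was 2.43 (SE 0.098, limma adjusted p = 3.44e-10). TotC and TotA, of the same family, were also called higher (2.27 and 1.40), at means of 8.77 and 28.2 scaled reads. TotC thus lay below the mean of 20, and DESeq2 gave it no adjusted p. In the list of JAK/STAT and Turandot genes, 4 of 14 rose and 1 fell (28.6% and 7.14%), with a median of 0.41. That median was 0.14 with edgeR, and within the pairs it was 0.01 in Luc KD Ac WT, 0.23 in Luc KD Ac R29G and 0.50 in H2A.Z KD. The summed level of the list in Luc KD Ac WT was 33997 scaled reads in the first run and 34541 in the second. For anachronism (ana), a secreted glycoprotein of glia that restrains neuroblast division, the values were 236, 162 and 147 scaled reads in the first run and 1629, 639 and 746 in the second. All second-run values lay above all first-run values, and the difference was 2.37 (SE 0.12, limma adjusted p = 1.32e-09).

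Further genes of this group had low levels in the first run and several times those in the second. The tyrosine hydroxylase gene pale (ple), which makes the precursor of dopamine and of cuticle pigment, had 22.3, 14 and 13.7 scaled reads in the first run and 149, 46.7 and 49.5 in the second, a difference of 2.05 (SE 0.25, limma adjusted p = 2.01e-05). Timeless (tim), a component of the circadian clock, had 17.1, 22.4 and 9.12 scaled reads in the first run and 61.4, 81.3 and 59.4 in the second, a difference of 2.06 (SE 0.25, limma adjusted p = 1.58e-05). Drosomycin (Drs), an antifungal peptide induced by the Toll pathway, had 56.5, 66.4 and 83.2 scaled reads in the first run and 215, 195 and 396 in the second, a difference of 1.89 (SE 0.15, limma adjusted p = 2.13e-07). In these 3 genes the runs did not overlap. The other genes with the largest rises were Msr-110, the cuticle protein gene TwdlT, the phosphate transporter gene NaPi-III, the gamma-glutamyl transferase gene Ggt-1, Fie, CG34136 and CG4269, with differences of 1.89 to 2.13.

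The largest falls were smaller than the largest rises, and several were in noncoding genes. mt:ND4L, which encodes a small subunit of respiratory complex I, had 1372, 1211 and 842 scaled reads in the first run and 355, 532 and 247 in the second, a difference of -1.63 (SE 0.11, limma adjusted p = 5.31e-08). CG33307 had 3232, 2897 and 5276 scaled reads in the first run and 1197, 1205 and 2353 in the second, a difference of -1.29 (SE 0.057, limma adjusted p = 7.65e-10). The first run was higher in every pair and did not overlap with the second for either gene. Zero population growth (zpg), an innexin of germline gap junctions, had 73.7, 58.9 and 91.2 scaled reads in the first run and 18.4, 24.2 and 40.8 in the second, a difference of -1.44 (SE 0.22, limma adjusted p = 0.000155). The long noncoding RNA CR34335 had 4986, 5999 and 3886 scaled reads in the first run and 2009, 2322 and 1889 in the second, a difference of -1.24 (SE 0.059, limma adjusted p = 1.32e-09). Its runs did not overlap. The antisense RNAs CR44704, CR45145 and CR45926 fell by 1.32 to 1.71 on the log2 scale, but whether counting used strand is not given, so they cannot be told apart from the genes they overlap. CG33181 fell by 1.48, and by 0.96 without the H2A.Z KD pair. The cuticle protein gene Cpr49Aa fell by 1.37, and by 0.81 without that pair. The others were snoRNA:Me18S-C1831, the homeobox gene Drgx, CG15145, lncRNA:CR44129 and firl, with differences of -1.48 to -1.20.

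**Figure D2:**
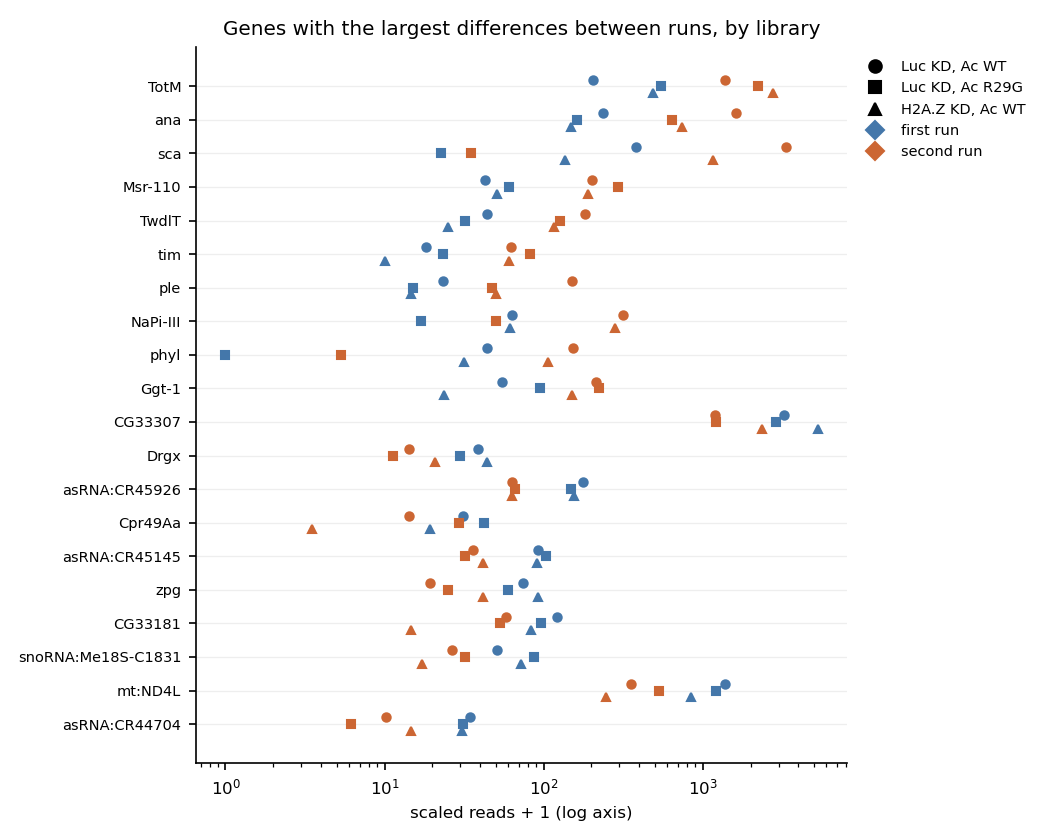
Scaled reads plus 1 (log axis) in each of the 6 libraries for the 10 genes with the largest rises (top) and the 10 with the largest falls (bottom), with symbols for the groups and colours for the runs. Within each group the second-run point lies to the right of the first-run point in the upper genes and to its left in the lower genes, and the Ac R29G libraries of sca, phyl and NaPi-III lie left of the other groups in both runs.

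Of 17 tested targets of proneural factors in sensory precursors, 8 rose and 2 fell, with a median of 0.37, against 11.8% higher and 15.4% lower over all genes. On the deposited scales 5 rose and 4 fell, and DESeq2 called 5 higher and 1 lower. The ac gene (X 370031 to 370947, BDGP6, plus strand) had 17369.9, 19998 and 14259 scaled reads in the first run and 24845, 21925 and 26328 in the second. The second run was higher in each pair, by 0.52, 0.13 and 0.88, and the fitted difference was 0.51 (SE 0.087, limma adjusted p = 0.000347). It was 0.33 without the H2A.Z KD pair, and DESeq2 did not call it (adjusted p = 0.0636). Da, the partner supplied to all groups, had 105057, 115309 and 73606 scaled reads in the first run and 93117, 83570.1 and 66109 in the second, with a difference of -0.26 (SE 0.055, limma adjusted p = 0.00188). That difference was -0.17 without the Luc KD Ac R29G pair, and DESeq2 did not call it either (adjusted p = 0.107). As all groups received plasmids for Ac and Da, reads of ac and da may come from plasmid and endogenous transcripts. The values per gene cannot tell these apart.

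Scabrous, a secreted protein that spaces sensory precursors (2R 12780541 to 12802010, BDGP6, plus strand), had 380.3, 21.5 and 135 scaled reads in the first run and 3346, 33.7 and 1167 in the second. It was high in the Ac WT groups of the second run and low with Ac R29G in both runs. The difference over all pairs was 2.29 (SE 0.31, limma adjusted p = 4.53e-05). Within a run, Luc KD Ac WT exceeded Ac R29G 17.7 times in the first run and 99.2 times in the second, while H2A.Z KD held 35.4% and 34.9% of the Luc KD level. Phyllopod, an adaptor that targets the repressor Tramtrack for degradation, had 42.8, 0 and 30.8 scaled reads in the first run and 152, 4.33 and 105 in the second, a difference of 1.99 (SE 0.28, limma adjusted p = 6.83e-05). The first-run Ac R29G library had no read of phyl, so no ratio to it is given. The other targets called higher were nerfin-1 (2.23), mira (0.94), Dl (0.73), siz (0.40), spdo (0.37) and neur (0.26), and those called lower were Traf4 (-0.27) and edl (-0.15). The nerfin-1 gene had a mean of 11.1 scaled reads, no read in the first-run Ac R29G library, and no adjusted p from edgeR or DESeq2. Nerfin-1 is a zinc finger factor of early neurons and Mira carries fate determinants in dividing neuroblasts. Of the 12 tested E(spl) and Bearded genes, which act in Notch signalling, 1 rose and 1 fell (8.33% each), with a median of -0.05. Both shares lie below the 11.8% called higher and 15.4% called lower over all genes. E(spl)mbeta-HLH had 964, 1022 and 1246 scaled reads in the first run and 619, 623 and 818 in the second, a difference of -0.65 (SE 0.065, limma adjusted p = 2.49e-06). Tom rose by 1.71 at a mean of few reads, and its call was lost without the Luc KD Ac WT pair (1.68, limma adjusted p = 0.0956) and without the H2A.Z KD pair (1.18, limma adjusted p = 0.167).

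His2Av, the gene for H2A.Z (3R 26866929 to 26869220, BDGP6, plus strand), differed between runs mainly where it was knocked down. It had 6524, 6131 and 1724 scaled reads in the first run and 5694, 5703 and 800.4 in the second. The knockdown library held 26.4% of the Luc KD Ac WT level in the first run and 14.1% in the second. The difference over all pairs was -0.47 (SE 0.12, limma adjusted p = 0.0088), and it was -0.15 without the H2A.Z KD pair. DESeq2 did not call it (adjusted p = 0.298). Arp6, which helps to load H2A.Z into chromatin and was not knocked down in these libraries, had 937, 1057 and 1036 scaled reads in the first run and 1049.8, 1026 and 1094 in the second, a difference of 0.07 (SE 0.064, limma adjusted p = 0.483).

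A test added after the values were seen asked for each gene whether 1 group's run difference departed from that of the other 2 pairs (limma, 11947 genes). It set 1 pair of libraries against 2 and left 1 residual degree of freedom per gene. Its SEs and p-values therefore rest mainly on spread pooled over genes, not on repeats of a group. Larger and smaller here go by the signed value, not by size. A gene that fell more in 1 group than in the others thus counts as smaller, as His2Av did with H2A.Z KD (-1.11 against -0.20 and -0.10). For Ac R29G, 0 genes had a larger difference (0%) and 7 a smaller one (0.0586%), with 387 at an unadjusted p under 0.05. The sca difference was 0.63 with Ac R29G and 3.13 and 3.11 in the Ac WT groups, a departure of -2.49 (SE 0.26, limma adjusted p = 5.46e-07). For ac the difference was 0.13 with Ac R29G and 0.52 and 0.88 in the others, a departure of -0.57 (SE 0.11, limma adjusted p = 0.0256). The other 5 were the taste receptor gene Gr43a (-1.21 (SE 0.20, limma adjusted p = 0.00629)), nervy (nvy), Dtg, GstZ2 and Hsp70Bb, the last of which has near-identical copies and is uncertain. For H2A.Z KD, 63 genes had a larger run difference (0.527%) and 102 a smaller one (0.854%), with 1495 at an unadjusted p under 0.05. His2Av departed by -0.96 (SE 0.094, limma adjusted p = 5.10e-20), and aubergine (aub), a Piwi protein that silences transposons, by -0.59 (SE 0.10, limma adjusted p = 1.02e-05). Atg18b, an autophagy gene, departed upward by 0.74 (SE 0.10, limma adjusted p = 5.87e-10). The lower His2Av level in the second knockdown library moved with these genes, and its part in them was not tested. Without an intensity trend 0 genes passed in either contrast, and after quantile normalization sca alone passed in the Ac R29G contrast and 0 genes in the other.

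**Figure D3:**
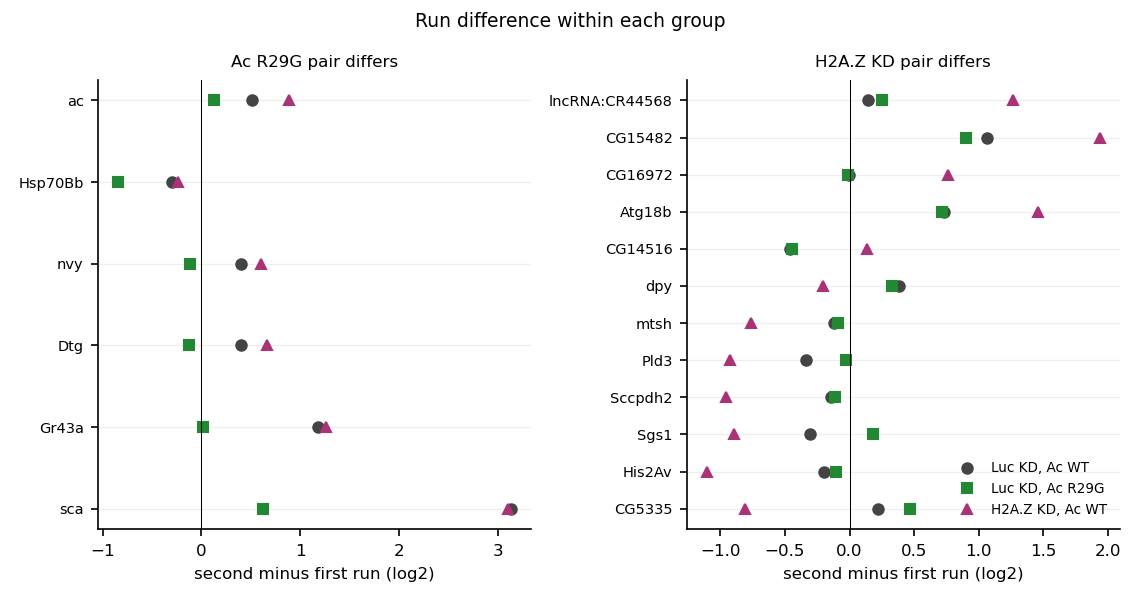
Log2 difference between runs within each group, for the 6 genes with a mean of at least 20 whose Ac R29G pair departed from the others (left) and the 12 others with the smallest p and a mean of at least 200 whose H2A.Z KD pair departed (right). In the left panel the sca point of Ac R29G is at 0.63 and both Ac WT points are above 3, and in the right panel the H2A.Z KD point lies outside both Luc KD points.

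Most genes of glycolysis rose. Of 16 tested genes of glycolysis and hypoxia, 12 rose and 1 fell (75% and 6.25%, against 11.8% and 15.4% of all genes). The median was 0.32. Triosephosphate isomerase (Tpi), a glycolytic enzyme, had 1013, 1037 and 1115 scaled reads in the first run and 1791, 1757 and 2046 in the second, a difference of 0.82 (SE 0.057, limma adjusted p = 8.85e-08). Lactate dehydrogenase (Ldh), which turns pyruvate into lactate, had 727, 654 and 649.8 scaled reads in the first run and 1399.8, 1124 and 1188 in the second, a difference of 0.86 (SE 0.065, limma adjusted p = 1.75e-07). The runs did not overlap for either enzyme. Aldolase (Ald1, 0.40), phosphoglycerate kinase (Pgk, 0.47), phosphofructokinase (Pfk, 0.46), enolase (Eno, 0.34) and Hex-C (1.15) also rose. The hypoxia factor sima, which encodes the fly HIF alpha subunit, fell (-0.18).

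Of 18 heat shock protein genes, 9 rose and 2 fell (50% and 11.1%), with a median of 0.33. The small heat shock genes Hsp23, Hsp26 and Hsp27, whose products hold unfolded proteins in solution, rose. Hsp23 had 922, 1029 and 1466 scaled reads in the first run and 2198, 1832 and 2645 in the second, a difference of 0.98 (SE 0.073, limma adjusted p = 1.59e-07). Hsp26 and Hsp27 rose by 0.71 and 0.98, and Hsp83, the fly Hsp90, by 0.26. In Hsp23 and Hsp27 the runs did not overlap, whereas the first-run H2A.Z KD value of Hsp26 lay among its second-run values. The list was not uniform, since Hsp70Bb and Hsp70Ba fell (-0.46 and -0.40) while Hsp70Ab rose (0.55). The Hsp70 copies are nearly identical, so how reads were split among them is uncertain. The heat shock factor gene Hsf itself had a difference of 0.01 (limma adjusted p = 0.946).

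Of 26 genes of xenobiotic and oxidative stress, 14 rose and 1 fell (53.8% and 3.85%), with a median of 0.39. Glutathione S-transferases, which conjugate toxins to glutathione, made up much of that count. GstE6 had 873, 928 and 1329 scaled reads in the first run and 1355, 1390.3 and 2076 in the second, a difference of 0.62 (SE 0.058, limma adjusted p = 1.22e-06). GstD1 (0.60), GstD2 (1.5), GstD5 (1.48), GstE9 (0.47) and the cytochrome P450 gene Cyp6a13 (1.58) also rose, and catalase (Cat, -0.16) fell. Of 10 metal response genes, 5 rose and 2 fell (50% and 20%), with a median of 0.40. Metallothionein A (MtnA), which binds copper and other metals, had 1432, 1571 and 1952 scaled reads in the first run and 3435, 3151 and 4560.0 in the second, a difference of 1.16 (SE 0.057, limma adjusted p = 1.32e-09), with no overlap. The ferritin heavy chain gene Fer1HCH had 22380.3, 20887 and 31320.0 scaled reads in the first run and 32592, 33253 and 53703 in the second, a difference of 0.66 (SE 0.047, limma adjusted p = 9.97e-08). The light chain gene Fer2LCH had 298, 210.4 and 308 scaled reads in the first run and 184, 170.4 and 240.0 in the second, a difference of -0.45 (SE 0.11, limma adjusted p = 0.00649), opposite in direction to the heavy chain. The Fer2LCH call was lost without the Luc KD Ac WT pair (-0.33, limma adjusted p = 0.123). The ferritin genes overlap in part on opposite strands. Whether counting used strand is not given, so how their reads were split is uncertain. The copper importer gene Ctr1A fell by 0.30.

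Nutrient genes moved in both directions. Of 13 genes of the amino acid response, 7 rose and 0 fell (53.8% and 0%), with a median of 0.26. Glutamine synthetase 2 (Gs2) had 1483, 1452 and 1936 scaled reads in the first run and 2661, 2846 and 3429 in the second, a difference of 0.88 (SE 0.053, limma adjusted p = 2.40e-08), with no overlap. The amino acid transporter genes path (0.51), CG5535 (0.42) and JhI-21 (0.31) rose, whereas crc, the fly ATF4, had 0.09 (limma adjusted p = 0.118). Of 33 aminoacyl-tRNA synthetase genes, 10 rose and 0 fell (30.3% and 0%, median 0.09), led by AsnRS (0.41) and LeuRS (0.38). Of 17 genes of insulin, TOR and FOXO signalling, 0 rose and 11 fell, with a median of -0.21. The share called lower was 64.7%, against 15.4% of all genes and 37.3% of protein-coding genes with the highest counts. Thor, the 4E-BP translation repressor that FOXO induces, had 11941, 10892 and 15569 scaled reads in the first run and 7134, 8040.0 and 11688 in the second, a difference of -0.53 (SE 0.056, limma adjusted p = 4.00e-06). The insulin receptor InR (-0.33), foxo (-0.34), the lipase bmm (-0.36) and S6k (-0.26) also fell. In lipid synthesis, 3 of 18 genes rose and 4 fell (16.7% and 22.2%, against 11.8% and 15.4% of all genes). The median of that list was -0.02, and 0.05 after quantile normalization. The fatty acid synthase gene FASN2 had 455, 415 and 724 scaled reads in the first run and 944, 822 and 1967 in the second, a difference of 1.16 (SE 0.083, limma adjusted p = 1.05e-07), so that list held 1 large rise amid small differences.

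Plasmatocyte markers were detected in both runs, and most of them fell. Of 20, 0 rose and 12 fell, with a median of -0.30 and a median level of 4129 scaled reads. The share called lower was 60%, against 15.4% of all genes and 37.3% of protein-coding genes with the highest counts. After quantile normalization 1 marker rose and 10 markers fell, with a median of -0.17 over the markers. The summed level of the markers was 640079 to 814572 scaled reads in the first run and 507291 to 616812 in the second. Hemese (He), a surface glycoprotein of hemocytes, had 2225, 1829.8 and 3497 scaled reads in the first run and 1055, 1059.8 and 1961 in the second, a difference of -0.90 (SE 0.062, limma adjusted p = 7.82e-08). The scavenger receptor gene Sr-CI had 2362, 2349 and 3969 scaled reads in the first run and 1446, 1574 and 1955 in the second, a difference of -0.77 (SE 0.069, limma adjusted p = 8.31e-07). Draper (drpr), an engulfment receptor, had 6519, 6614 and 9636 scaled reads in the first run and 4398, 4587 and 6830.1 in the second, a difference of -0.53 (SE 0.044, limma adjusted p = 4.22e-07). For drpr the second-run H2A.Z KD value lay above both first-run Luc KD values, so the runs overlapped although every pair fell. The hemocyte GATA factor srp (-0.34), the peroxidasin gene Pxn (-0.27) and both collagen IV genes, Col4a1 (-0.38) and vkg (-0.41), fell. Eater, NimC1 and crq, receptors for bacteria and dying cells, had -0.08, 0.04 and -0.09 and were not called.

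Genes of actin and cell adhesion moved in both directions. Of 24, 5 rose (20.8%, against 11.8% of all genes) and 11 fell (45.8%, against 15.4%), with a median of -0.14. After quantile normalization 5 rose and 9 fell, with a median of -0.03. The median level of the list was 12330 scaled reads, and 37.3% of protein-coding genes with the highest counts were called lower. Laminin B2 (LanB2) had 42512, 43993 and 55105 scaled reads in the first run and 29430.5, 32519 and 33629 in the second, a difference of -0.56 (SE 0.050, limma adjusted p = 7.93e-07). SPARC, a collagen-binding matrix protein, fell by 0.46, and chic, the fly profilin, by 0.43. Act87E, an actin gene, had 167, 189 and 99.2 scaled reads in the first run and 512, 419 and 282 in the second, a difference of 1.42 (SE 0.11, limma adjusted p = 2.61e-07). It rose in every pair, and as actin genes share much sequence its reads are uncertain. Of 21 MAPK and JNK genes, 4 rose and 10 fell (19% and 47.6%, median -0.12), with the feedback inhibitor sprouty (sty) at -0.45 and the secreted inhibitor argos (aos) at 1.00. Of 28 genes of antimicrobial peptides and recognition, 5 rose and 3 fell, which is 17.9% and 10.7% against 11.8% and 15.4% of all genes (median 0.07, and -0.03 after quantile normalization). The peptidoglycan receptor PGRP-LC had 3048, 3176 and 3626 scaled reads in the first run and 1969, 2199 and 2501 in the second, a difference of -0.57 (SE 0.050, limma adjusted p = 7.72e-07), while AttD, an attacin, rose by 1.26. The ligand gene spz of the Toll pathway fell by 0.41.

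Most cytosolic ribosomal protein genes fell, by an amount that depended on scaling. Of 85, 5 rose and 55 fell (5.88% and 64.7%, against 11.8% and 15.4% of all genes), with a median of -0.18. Their median level was 64408 scaled reads, and 37.3% of protein-coding genes with the highest counts were called lower. After quantile normalization 19 of the 85 rose and 26 fell, with a median of -0.02. RpL28 had 85021, 78226 and 86437 scaled reads in the first run and 46987, 52267 and 58594 in the second, a difference of -0.67 (SE 0.054, limma adjusted p = 2.86e-07), without overlap. RpL29 (-0.56), RpS15 (-0.53) and RpL36A (-0.48) also fell. Of 25 ribosome biogenesis genes, 1 rose and 9 fell (median -0.10), with Surf6 at -0.67 and Nopp140 at -0.36. The 36% of that list called lower lies near the 37.3% called lower among protein-coding genes with the highest counts. After quantile normalization 1 rose and 4 fell (median -0.02), and on the deposited scales 0 rose and 21 fell. Of 72 mitochondrial ribosomal protein genes, 5 rose and 19 fell (6.94% and 26.4%, median -0.08).

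Of 18 tested genes encoded in the mitochondrial genome, 0 rose and 14 fell, with a median of -0.47. The share called lower was 77.8%, against 15.4% of all genes and 37.3% of protein-coding genes with the highest counts. The summed level of the mitochondrially encoded genes was 1451600 to 1775000 scaled reads in the first run and 1185310 to 1308600 in the second. Cytochrome b (mt:Cyt-b) had 146468, 132115 and 166437 scaled reads in the first run and 97408, 98396 and 93576 in the second, a difference of -0.61 (SE 0.060, limma adjusted p = 1.89e-06). mt:ND1 had 8957, 8004 and 9151 scaled reads in the first run and 5776, 5179.8 and 4783 in the second, a difference of -0.73 (SE 0.056, limma adjusted p = 1.98e-07). For both genes the runs did not overlap. Of 26 nuclear genes of the respiratory chain, 11 rose and 2 fell (42.3% and 7.69%), with a median of 0.12. After quantile normalization 16 rose and 1 fell, whereas on the deposited scales 1 rose and 7 fell. COX4, a subunit of cytochrome c oxidase, had 1747, 1995 and 1966 scaled reads in the first run and 2886, 2603 and 2477 in the second, a difference of 0.48 (SE 0.067, limma adjusted p = 5.63e-05). The libraries were made from total RNA with kits named for mRNA, and how far poly(A) selection set the mitochondrial share in each run was not tested.

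Of 30 proteasome genes, 13 rose and 2 fell (43.3% and 6.67%, median 0.08), with Prosalpha5, a subunit of the core particle, at 0.46. On the deposited scales 3 rose and 11 fell. Of 18 genes of the unfolded protein response of the endoplasmic reticulum, 0 rose and 8 fell (0% and 44.4%, median -0.10). Over all genes 11.8% were called higher and 15.4% lower, and 37.3% of protein-coding genes with the highest counts were called lower. The transcription factor gene Xbp1 of that response had -0.30 and the chaperone gene calreticulin (Calr) -0.23. After quantile normalization that list had 2 rises and 2 falls around a median of 0.00. On the deposited scales, where the median of all genes was -0.15, the medians of the respiratory chain, proteasome and synthetase lists were -0.04, -0.08 and -0.07, so they were negative but above that of all genes.

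Of 25 mitosis genes, 1 rose and 3 fell (4% and 12%, against 11.8% and 15.4% of all genes), with a median of 0.02. Among the falls, the calls of Incenp and mad2 were lost without the Luc KD Ac WT pair (limma adjusted p = 0.0631 and 0.145). The centromeric histone gene cid had 192, 179.5 and 169 scaled reads in the first run and 128, 122 and 116 in the second, a difference of -0.56 (SE 0.12, limma adjusted p = 0.003). Of 25 replication genes, 1 rose and 6 fell (4% and 24%, median 0.02). The call of the gene that rose, Mcm7, was lost without the Luc KD Ac WT pair (0.16, limma adjusted p = 0.123). In 7 of the 25 all second-run values lay below all first-run values, against 11.6% of all genes. In 3 they lay above, against 11% of all genes. After quantile normalization 6 replication genes rose and 5 fell, and on the deposited scales 13 replication and 14 mitosis genes fell and 0 rose. Among the called genes were the transcription factor gene E2f1 at -0.38 and the licensing inhibitor gene geminin at -0.24. Of 111 listed replication-dependent histone genes, 109 were listed at 0 in all 6 libraries and 1 could be tested.

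The RNA interference machinery, which carries out the knockdowns, had 3 rises and 3 falls among 13 genes. That is 23.1% each, against 11.8% higher and 15.4% lower over all genes. The AGO3 rise lost its call without the Luc KD Ac WT pair (0.66, limma adjusted p = 0.099). The r2d2 fall lost its call without the H2A.Z KD pair (-0.18, limma adjusted p = 0.0508). Dcr-2, the nuclease that cuts double-stranded RNA, had 5231, 5505 and 4971 scaled reads in the first run and 6162, 6371 and 5722 in the second, a difference of 0.22 (SE 0.044, limma adjusted p = 0.00158). Among ecdysone response genes, 5 of 19 rose and 2 fell (26.3% and 10.5%, median 0.09), with the transporter gene E23 at 0.70 and broad (br) at -0.39. In dosage compensation, 1 of 7 genes rose and 3 fell, against 2 rises and 0 falls after quantile normalization. The msl-1, msl-2 and msl-3 calls among these were lost without the Luc KD Ac WT pair, with limma adjusted p values of 0.102 to 0.278. The noncoding RNA roX1, which marks the male X chromosome, had 94898, 94438 and 119028 scaled reads in the first run and 73225, 80542 and 99488 in the second, a difference of -0.29 (SE 0.045, limma adjusted p = 0.000184).

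Markers of other cell types ranged widely in level and moved in both directions. The muscle factor gene Mef2 had a mean of 2392 scaled reads and the germline gene bam 1886, and the 3 glia markers summed to 5136 to 6260 per library. Of 4 crystal cell markers, 3 rose (75%, median 0.92), against 11.8% of all genes. The prophenoloxidase gene PPO1, whose product makes melanin, had 15.4, 20.6 and 29.6 scaled reads in the first run and 60.4, 57.1 and 105 in the second, a difference of 1.71 (SE 0.22, limma adjusted p = 2.99e-05). The summed level of these 4 markers was 849 to 1001 scaled reads in the first run and 1159 to 1556 in the second, most of it reads of peb, while the defining factor lz had 2.28 to 11.1 scaled reads per library. Germline and epithelium markers each had 3 rises among 5 genes (60%), with nos at 1.29, crumbs (crb) at 0.83 and E-cadherin (shg) at 0.84. The epithelium call of baz (0.20) was lost without the Luc KD Ac WT pair (0.21, limma adjusted p = 0.0723). Neuron markers had 1 rise and 1 fall among 6. The synaptic scaffold gene brp had 269, 257 and 269 scaled reads in the first run and 138, 128 and 103 in the second, a difference of -1.11 (SE 0.12, limma adjusted p = 6.53e-06), and elav, which marks neurons, rose by 0.30. The part of these markers in other run differences was not tested. Of 5 muscle markers 1 rose and 1 fell, of 3 lamellocyte markers 1 rose, and none of 3 glia or 3 fat body markers was called. The muscle call of Mlc2 (0.48) was lost without the Luc KD Ac WT pair (0.46, limma adjusted p = 0.147) and without the Ac R29G pair (0.51, limma adjusted p = 0.0744). The lamellocyte call of atilla (0.63) was lost without the Luc KD Ac WT pair (0.56, limma adjusted p = 0.168) and without the H2A.Z KD pair (0.49, limma adjusted p = 0.302).

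**Figure D4:**
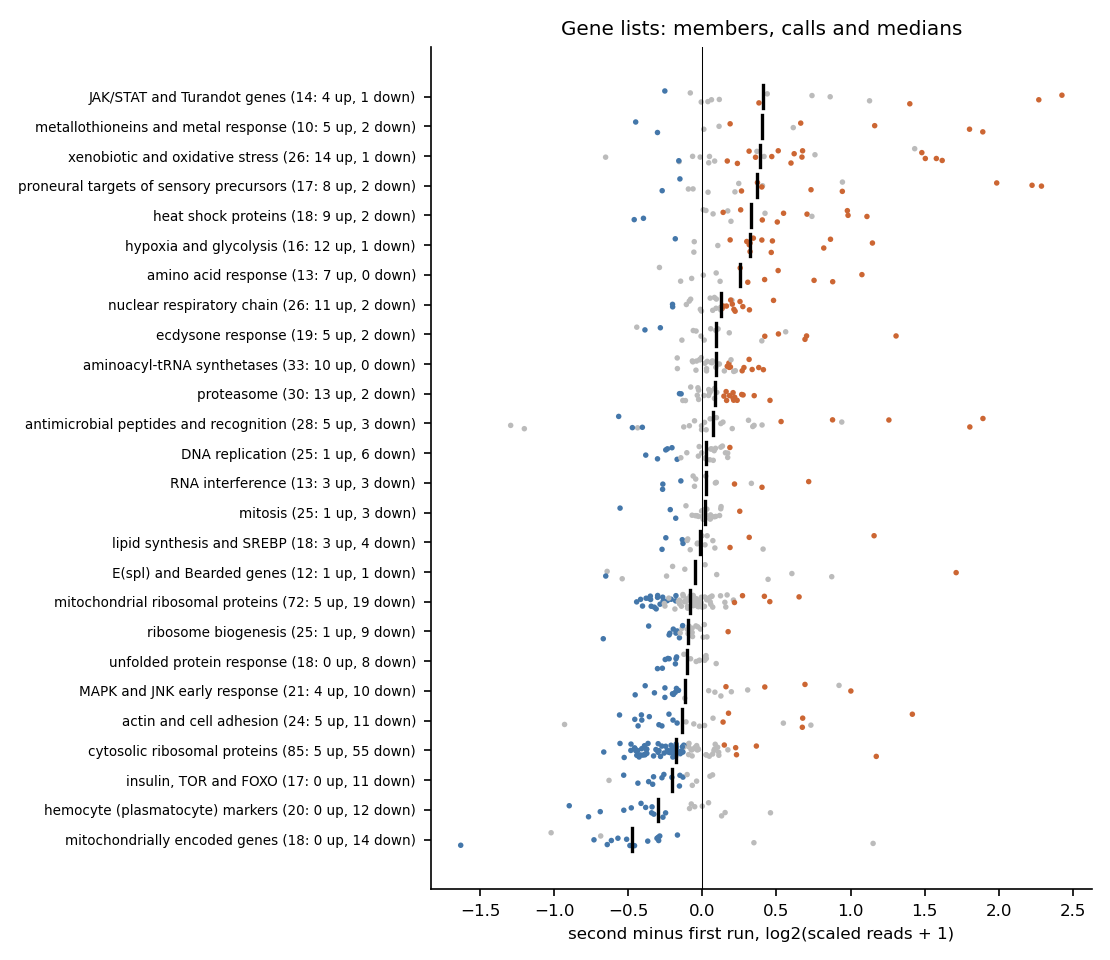
Log2 difference between runs for the members of each gene list with at least 10 tested genes, small RNAs left out, with coloured points for genes called higher or lower and a bar for the list median. The medians run from -0.47 in mitochondrially encoded genes to 0.41 in JAK/STAT and Turandot genes, the latter with 0.01 in the Luc KD Ac WT pair alone.

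Run differences varied with the read count of a gene. With protein-coding genes ranked by mean scaled reads in 5 bins of equal size, the median difference was 0.34 in the lowest bin and 0.25 in the next. In the 3 upper bins it was -0.03, -0.05 and -0.08. The share called lower rose from 0.706% in the lowest bin to 37.3% in the highest, and the share called higher was largest in the second-lowest bin, at 20.9%. After quantile normalization the medians were 0.13, 0.04, -0.02, -0.01 and -0.00. More low genes were detected in the second run: at an equal depth, the expected number of genes with a read was 11942 to 12034 in the first-run libraries and 12320 to 12558 in the second-run libraries. The 100 genes with the most reads in each library held 33.9%, 34.8% and 36.6% of reads in the first run and 32.2%, 33.0% and 34.2% in the second.

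Medians varied little with length and position. Medians over 5 bins of exon length were -0.02 to 0.02, and those over the main chromosome arms -0.04 (chromosome 4) to 0.02 (X). The shares called varied more. In the shortest bin 8.95% were called higher and 16.5% lower, and in the longest 15.5% and 20.8%. On chromosome 4, 3.92% of 102 genes were called higher and 21.6% lower. Over 117 windows of 1 Mb with at least 20 genes each, medians were -0.17 to 0.08. Of 28 snRNA genes, 12 rose and 0 fell (42.9% and 0%), with a median of 0.92. Among 161 snoRNA genes there were 5 rises and 10 falls (3.11% and 6.21%). The spliceosomal snRNA gene U4:39B had 36.8, 41.1 and 76.4 scaled reads in the first run and 77.8, 74.4 and 182 in the second, a difference of 1.05 (SE 0.17, limma adjusted p = 0.000295). Most snRNA genes have near-identical copies, so single members are uncertain.

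Against the differences between groups, the run set libraries apart by a comparable amount. Over 8371 genes with a mean of at least 20, the SD of the log2 difference between the runs of 1 group was 0.40 in Luc KD Ac WT, 0.34 in Luc KD Ac R29G and 0.44 in H2A.Z KD. Between Ac WT and Ac R29G within a run it was 0.25 in the first and 0.28 in the second, below each of the run values. Between Luc KD and H2A.Z KD with Ac WT it was 0.46 and 0.55, above them. Summed over genes, the run held 31.6% of the sum of squares, the group 59.7% and the remainder 8.72%. The share of the run exceeded that of the group in 2794 genes (33.4%). The run term has 1 degree of freedom per gene and the group term 2, so these shares are not directly comparable. The 3 pairs gave like differences: 5309 genes (63.4%) had 1 sign in all pairs, and across genes the differences of 2 pairs correlated at 0.65 to 0.73 (Pearson, as a description, since genes of 1 library share its depth and preparation).

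**Figure D5:**
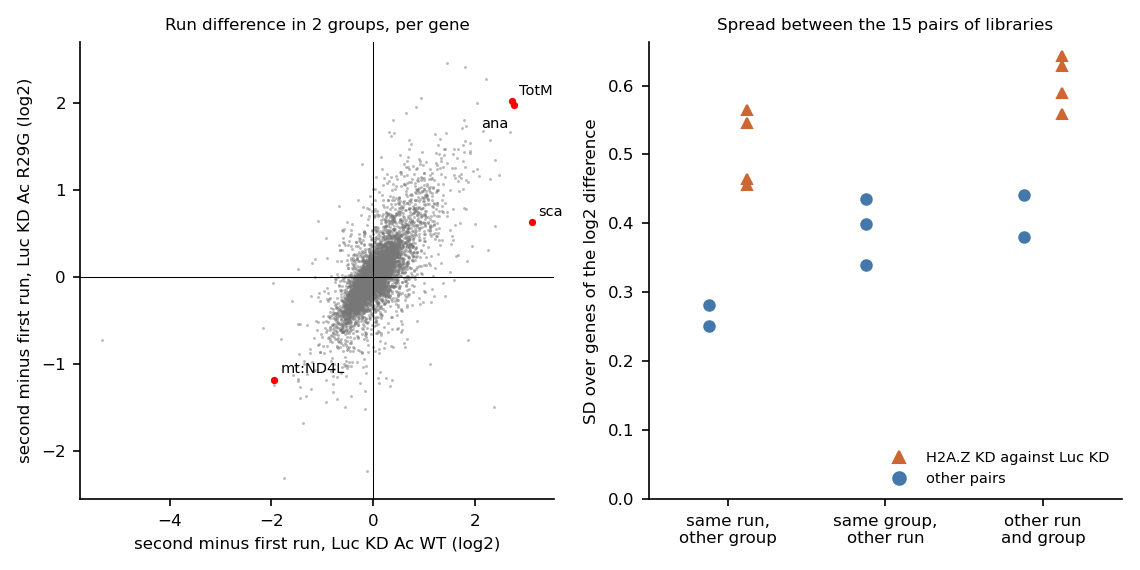
Left, the log2 difference between runs of each of 8371 genes in Luc KD Ac WT against that in Luc KD Ac R29G. Right, the SD over these genes of the log2 difference for the 15 pairs of libraries, where 0.25 and 0.28 within a run between the Ac WT and Ac R29G groups lie below the 0.34 to 0.44 between runs of 1 group.

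The 4 libraries of set 2, which were not used above, give a second view of the same genes. They received Ac WT and Da with either Luc KD or Arp6 KD, as replicates 1 and 2 at 9396318 to 10608470 reads. The labels do not tie their replicate numbers to the runs of set 1. The same fit called 5 genes higher and 0 lower in replicate 2 of 10605 tested, with 1780 at an unadjusted p under 0.05. With a mean of at least 10 it called 507 and 397. Since the numbers are not tied, only the size of a difference, whatever its sign, is set beside set 1. The median absolute log2 difference between the replicates of set 2 was 0.129 over the 10534 genes tested in both sets. It was 0.191 over the 1366 genes called higher in the second run of set 1 and 0.0834 over the 1816 called lower. Over the 308 genes called higher by 2-fold or more it was 0.505, and over the 58 called lower by as much it was 0.311. Genes with few reads differ more by counting alone, and the part of that in these medians was not tested.

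Single genes with large run differences in set 1 ranged widely in set 2. Between replicates 1 and 2, sca differed by 1.32 in Luc KD and 1.53 in Arp6 KD, ana by 1.49 and 1.43, and ple by 1.31 and 1.23, on the log2 scale. The ple values were low, at 3.06 to 14.6 scaled reads. TotM was near the floor in set 2, with 1.06 and 7.78 scaled reads in Luc KD and 4.08 and 2.84 in Arp6 KD. Its differences of 2.09 and -0.40 had opposite signs and are uncertain at so few reads. MtnA differed by 0.11 and 0.27 and Hsp23 by -0.01 and 0.06, both small beside 1.16 and 0.98 in set 1. Each of these set 2 values is a difference of 1 pair of libraries. Fitted over both pairs, sca differed by 1.43 (limma adjusted p = 0.0288) and was called higher in replicate 2. The fit did not call ana (1.46, limma adjusted p = 0.0686) or ple (1.27, limma adjusted p = 0.228). TotM, MtnA and Hsp23 were not called either (limma adjusted p = 0.600, 0.328 and 0.768).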

How the data were processed

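The authors deposited a signal per gene, which the values show to be whole reads divided by 1 factor per library. Every value (100%) was a whole multiple of its column's smallest value within 0.001 reads, so reads were recovered. Partek and BDGP6 are named, per the submitters' processing notes; aligner, counter and strand use: not given in the sources used here. The Luc KD columns were assigned to set 1 because they share tables with R29G. Of 23932 features, 17869 genes were kept and 6063 others left out. The recovered reads of the 6 libraries were scaled jointly (median of ratios). limma 3.58.1 (R 4.3.3) was fitted with trend on log2(value + 1), group as block and run as term. Genes needed a mean of 1 or more, and p-values were adjusted by the Benjamini-Hochberg method. This design left 2 residual degrees of freedom per gene, and the added test of 1 group's departure left 1. Alternatives were edgeR 4.0.16, DESeq2 1.42.0, scaling, pseudocount, filter, trend and leaving out a pair. Depth was 24500413 to 33712374 reads per library, and 1 read was worth 0.857 to 1.24 scaled reads. Tables used Python 3.11.15 and pandas 2.3.3. The fits were tested on simulated data.

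Pairs come from the column names. Deviations from the run means correlated within a group at 0.57, 0.61 and 0.76 (9114 genes). Set 2 was fitted separately on deposited values. Named genes were the 14 largest rises and falls with 1 sign in 3 pairs and a mean of at least 20, up to 4 called members per list by p, and ac, da, His2Av, Arp6, sca and phyl; genes outside this rule were chosen after their values were seen. The comparison and all 38 lists were chosen with earlier results of these data known. Of 17869 identifiers, 17790 were found in the BDGP6 annotation.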

Additional observations from a re-analysis of the deposited data

Results flagged for a closer look

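For the genes named by rule, the run difference of 1 group departed from that of the other 2 pairs in 11 cases (limma, adjusted p under 0.05, a test added after the values were seen). Each departure sets 1 pair of libraries against 2, and its p-value rests mainly on spread pooled over genes. With Ac R29G the departure was -2.49 for sca and -0.57 for ac. With H2A.Z KD it was -0.96 for His2Av, -1.55 for CG33181, -0.38 for Sr-CI and -0.31 for mt:ND1. It was 0.56 for ac, 1.07 for Ggt-1, 0.46 for GstD1 and 0.39 for blanks. For sca it was 1.23 with H2A.Z KD, but the other 2 pairs there differed widely, at 3.13 with Luc KD Ac WT and 0.63 with Ac R29G, and edgeR did not call it (0.14, adjusted p = 0.936). edgeR did not call Ggt-1 (adjusted p = 0.102), CG33181 (adjusted p = 0.0803) or mt:ND1 (adjusted p = 0.0697) in that contrast either.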

How the results depend on the processing

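Dropping the group term (no replicate block) left 52 genes higher and 49 lower, all among those called in the paired fit, with 1849 at an unadjusted p under 0.05. Without the intensity trend, or without the low-value filter, limma called 0 and 0. Deposited scales gave 786 higher and 4329 lower, and DESeq2 gave 830 higher. Leaving out 1 pair gave 855 to 1612 higher and 1195 to 1780 lower. The other scalings, both pseudocounts, a mean of at least 10 and edgeR kept both counts within 1.5 times. In set 2, where 5 and 0 were called, the counts were 61 and 0 without the replicate block, 507 and 397 with a mean of at least 10, and 238 and 94 with a pseudocount of 5. For the departure of Ac R29G (0 larger, 7 smaller) the counts were 1 smaller after quantile normalization and with a pseudocount of 5, 0 without trend, 3 larger and 11 smaller with a mean of at least 10, and 2 larger and 13 smaller with edgeR. For H2A.Z KD (63 larger, 102 smaller) they were 0 and 0 after quantile normalization and without trend, and edgeR gave 52 smaller. The causes were not tested. Of 155 named genes, 149 lost their call without trend or filter, 130 without the block and 14 without the Luc KD Ac WT pair. No named gene changed direction with a call. Counting error limits genes under about 10 scaled reads.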

Other observations

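A few genes moved strongly in opposite directions between the pairs, and were chosen after their values were seen. Of genes with a mean of at least 20, 46 had 1 pair higher by 0.5 or more and another lower by 0.5 or more on the log2 scale, and 5 had pairs apart by 1 or more each way. The octopamine receptor gene Octbeta3R had 39.4, 44.9 and 1.14 scaled reads in the first run and 0, 26.8 and 9.90 in the second. The long noncoding RNA CR46258 had 13.7, 14 and 11.4 in the first run and 75.7, 4.33 and 14.8 in the second. Sevenless (sev), a receptor tyrosine kinase of the eye, had 24.0, 25.2 and 18.2 and then 53.2, 12.1 and 17.3. CG15142 and CG17928 were the other 2. All 5 were low, and none was called for a run difference.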
